A study of Mus musculus with 6 samples.

Results

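The genes described here code for the enzymes of fatty acid and cholesterol synthesis and for the Srebf regulators that control them, measured in mouse embryonic bladders with and without Klf5. They were taken from the expression table by gene symbol, and 32 of 33 listed genes had a feature with a single symbol, out of 19938 genes in all. The fatty acid arm held 12 measured genes, the sterol arm 16 and the regulators 4; Acat2 of the sterol arm was not analysed here. Genes with several array features are given by their brightest feature, averaged across the 6 arrays.

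The study compared Klf5-deleted embryos (Klf5 ∆/∆) with control embryos (Klf5+/+ShhGfpCre+) at E14.5, with 3 arrays each. Every array read total RNA of 2 whole bladders pooled together, although the source is also labelled bladder urothelium. Klf5 is a zinc-finger transcription factor of epithelia. The controls carry ShhGfpCre, an allele that makes Cre recombinase where Shh is active, such as the lining epithelium of the bladder; that the same driver deleted Klf5 was taken from the controls, since the labels give the mutants only as Klf5 ∆/∆. Values are log2 expression values, and each difference is Klf5-deleted minus control on that scale.

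Cells build fatty acids and sterols from acetyl-CoA in the cytosol. In the fatty acid arm acetyl-CoA is carboxylated, assembled into palmitate, and then lengthened and desaturated. In the sterol arm it is condensed through mevalonate to farnesyl diphosphate, then to squalene, and closed into the ring of lanosterol, which is trimmed to cholesterol. SREBP proteins, the products of Srebf1 and Srebf2, are held in the endoplasmic reticulum by Scap and the Insig proteins while sterols are plentiful, and move on to switch on both arms when sterols run low. SREBP-1c is best known for the fatty acid genes and SREBP-2 for the sterol genes. In the bladder, the surface cells of the urothelium carry membrane plaques and many vesicles, so lipid supply is part of their biology.

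The labels held up on the targeted gene: Klf5 read 10.12, 10.34 and 10.23 in the Klf5-deleted arrays, against 10.84, 10.63 and 10.97 in the control arrays, a difference of -0.59 (SE 0.10, adjusted p = 0.0381 by limma). Without any array other than control 2 its adjusted p by limma was 0.0847 to 0.156, and which part of Klf5 the feature covers was not analysed here. Across genes, the correlation between arrays (Pearson's r) was 0.994 to 0.996 within the Klf5-deleted group and 0.987 to 0.996 within the control group. Control 2 stood apart by placental transcripts: its mean over 3 placental markers was 11.35, against 5.58 to 7.75 on the 3 Klf5-deleted arrays and 5.58 and 6.58 on the other control arrays. Its means over 8 yolk sac and liver markers and 4 leukocyte markers were also the highest, at 10.74 and 9.54, against 8.82 to 9.99 and 8.64 to 8.93 on the other 5 arrays. The 13 urothelial and epithelial markers were all lower in Klf5-deleted bladders, with 9 past the threshold, and their mean log2 level was 9.45 to 9.76 in the Klf5-deleted arrays, against 10.92 to 11.11 in the control arrays. The drop was uneven: the 9 differed by -3.19 to -1.10. The 4 that did not pass were Epcam at -0.39, Upk3b at -0.32, Trp63 at -0.24 and Krt5 at -0.10. In RNA of whole bladders, fewer cells of a type and less RNA per cell cannot be told apart. The 8 adipocyte markers stand for cells that could have carried lipid synthesis into the samples. They averaged 7.07 to 7.14 in the Klf5-deleted and 7.07 to 7.19 in the control arrays. None passed the threshold, with 4 lower and 4 higher and differences from -0.12 to 0.08. Only Fabp4 and Lipe had group means above the array medians over all features, which ran from 7.68 to 7.80. Such dim markers say little about adipocyte content. The 6 smooth muscle markers averaged 12.26 to 12.56 in the Klf5-deleted and 12.52 to 12.87 in the control arrays; all 6 were lower, 5 without overlap, with a median of -0.28 and none past the threshold. The part of these cell types in the results below was not tested.

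The desaturase gene Scd1 and the elongase gene Elovl6 fell in the Klf5-deleted bladders, and no member rose. They were the 2 members of 32 past an adjusted p of 0.05 in limma's fit over all genes, where 1.98% of genes passed in either direction, 1.59% as lower and 0.386% as higher. No member differed by 2-fold. The sterol genes were all lower, 16 of 16, within a narrow band of differences from -0.36 to -0.08 and with a median of -0.25. The fatty acid genes ran from -0.71 to 0.12, with 10 of 12 lower and a median of -0.14. Over all genes 53.5% were lower and the median was -0.01. With each array centred on the median of its housekeeping genes, 15 of 16 sterol genes and 7 of 12 fatty acid genes were lower, against 25.7% of all genes. That median was taken over expression levels, so on each array it rested on Ywhaz and the higher of B2m and Pgk1. Ywhaz differed by 0.04, B2m by -0.28 and Pgk1 by -0.20, while the median difference of the 8 housekeeping genes was -0.002. Whether the arms differ was not tested.

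**Figure D1:**
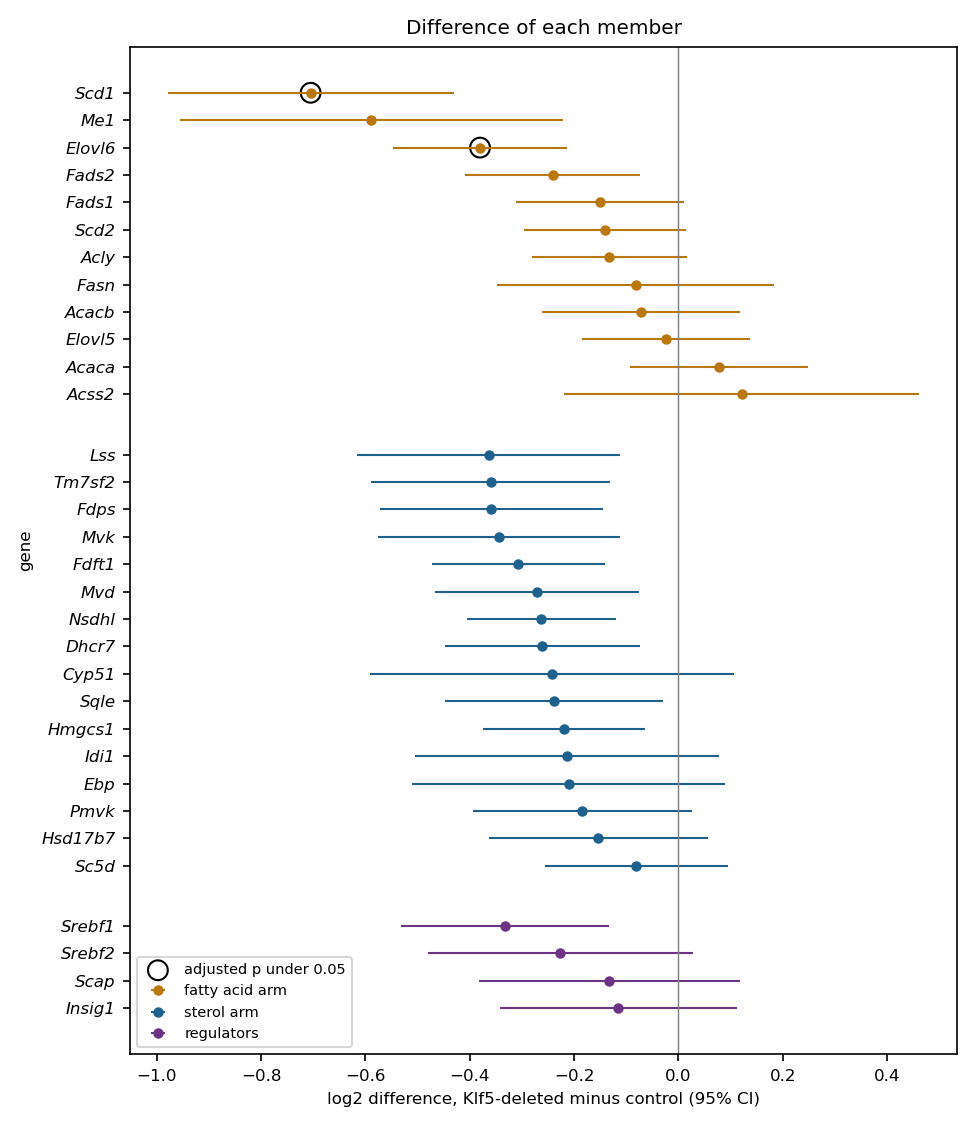
Log2 difference of each measured member, Klf5-deleted minus control (horizontal axis), with its 95% confidence interval from limma, by arm and in order of size. Rings mark Scd1 and Elovl6, the 2 genes past the adjusted p threshold; the 16 sterol genes lie between -0.36 and -0.08, while the fatty acid genes spread from -0.71 to 0.12.

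Counting genes whose 3 Klf5-deleted arrays all lay below all 3 control arrays gave 10 of 16 sterol genes, 7 of 12 fatty acid genes and 2 of 4 regulators, where 11.8% of all genes showed this pattern. None of the 32 members showed the opposite pattern, with every Klf5-deleted array above every control array, which 8.67% of all genes did. At an unadjusted p under 0.05 by limma, 10 of 16 sterol genes and 4 of 12 fatty acid genes were lower, against 8.08% of all genes, and no member was higher, against 6.34%. None of the 10 sterol genes passed after adjustment; the smallest adjusted p was 0.0931 by limma, for Fdft1. Without control 2, the array with the highest placental transcripts, the counts without overlap stayed at 10 sterol and 7 fatty acid genes, against 16.6% of all genes. Leaving out an array can raise such a count but cannot lower it. Control 2 was the lowest control in 0 of 16 sterol and 5 of 12 fatty acid genes, so the sterol count could not change. With each array centred on the median of its housekeeping genes the counts were 4 of 16 sterol and 3 of 12 fatty acid genes, against 4.93% of all genes.

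**Figure D2:**
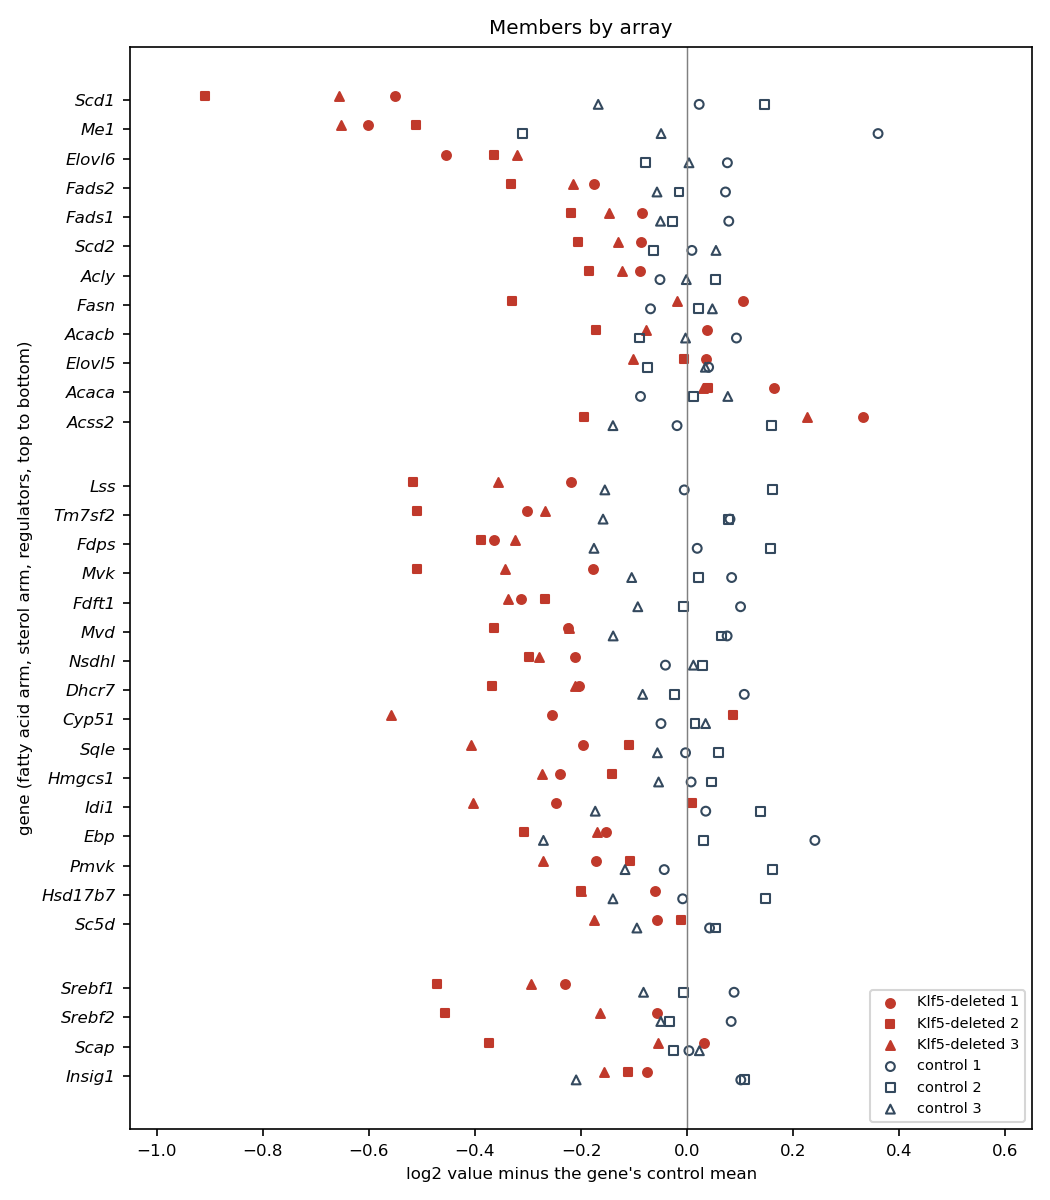
Log2 value of each member on each array minus that gene's control mean (horizontal axis), with filled red marks for Klf5-deleted and open dark marks for control arrays and 1 shape per replicate number. In 10 of 16 sterol genes and 7 of 12 fatty acid genes every red mark lies left of every open mark.

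In the supply of acetyl-CoA and reducing power, no gene passed the threshold, and the malic enzyme gene Me1 had the largest difference. Me1, whose product makes NADPH for lipid synthesis in the cytosol, read 9.68, 9.77 and 9.63 in the Klf5-deleted arrays, against 10.64, 9.97 and 10.23 in the control arrays. The groups did not overlap, but the control arrays were spread widely, with control 1 highest and control 2 lowest. The difference was -0.59 (95% CI -0.96 to -0.22, adjusted p = 0.136 by limma), or 1.50-fold lower. Without control 2 it was -0.74 with an adjusted p of 0.0383 by limma, so this gene crossed the threshold when that array was left out. A second Me1 feature on the array differed by -0.57. Acly, which splits citrate into acetyl-CoA, differed by -0.13 (95% CI -0.28 to 0.02), with groups that did not overlap.

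Acss2, which makes acetyl-CoA from acetate, was the member with the highest difference. It read 9.73, 9.21 and 9.63 in the Klf5-deleted arrays, against 9.38, 9.56 and 9.26 in the control arrays. Klf5-deleted 2 was the lowest of all 6 arrays and the other Klf5-deleted arrays were the highest, so the groups overlapped. The difference was 0.12 (95% CI -0.22 to 0.46, adjusted p = 0.778 by limma).

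The 3 genes that carry acetyl-CoA to palmitate showed the smallest differences of the fatty acid arm together with Elovl5. Acaca, the acetyl-CoA carboxylase of the cytosol, read 10.94, 10.82 and 10.81 in the Klf5-deleted arrays, against 10.69, 10.79 and 10.86 in the control arrays, which overlapped. Its difference was 0.08 (95% CI -0.09 to 0.25, adjusted p = 0.704 by limma), and that of its second feature was 0.15. Acacb, the carboxylase at mitochondria, differed by -0.07 (95% CI -0.26 to 0.12). Fasn, the fatty acid synthase, differed by -0.08 (95% CI -0.35 to 0.18), and its sign rested on Klf5-deleted 2: without that array it differed by 0.04.

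The 6 genes that modify the finished chain were all lower, with differences from -0.71 to -0.02 and a median of -0.20. The median was -0.13 for the 3 genes of acetyl-CoA and NADPH supply and -0.07 for the 3 genes of palmitate synthesis, and these groups were not tested against each other. Scd1, a stearoyl-CoA desaturase that makes monounsaturated fatty acids, read 10.87, 10.51 and 10.76 in the Klf5-deleted arrays, against 11.44, 11.56 and 11.25 in the control arrays. Every Klf5-deleted array was below every control array, with Klf5-deleted 2 lowest. The gene was 1.63-fold lower, a difference of -0.71 (SE 0.12, 95% CI -0.98 to -0.43, adjusted p = 0.0316 by limma). Elovl6, the elongase that lengthens palmitate to stearate, read 11.19, 11.28 and 11.33 in the Klf5-deleted arrays, against 11.72, 11.57 and 11.65 in the control arrays, again without overlap. It was 1.30-fold lower, a difference of -0.38 (SE 0.07, 95% CI -0.55 to -0.21, adjusted p = 0.0461 by limma).

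Both calls lay close to the threshold. Scd1 had an adjusted p by limma of 0.0618 to 0.125 without any of the Klf5-deleted arrays, control 1 or control 2, and of 0.0447 without control 3. Elovl6 had an adjusted p of 0.0606 to 0.179 by limma without each of the 6 arrays in turn, with differences of -0.42 to -0.34, and of 0.0819 to 0.0903 with the arrays centred in 3 other ways.

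A paralog of each enzyme was among the members. Scd2, a desaturase prominent in embryonic tissues, differed by -0.14 (95% CI -0.30 to 0.01). The Scd1 value minus the Scd2 value was -2.46, -2.70 and -2.52 in the Klf5-deleted arrays, against -1.98, -1.79 and -2.22 in the control arrays. The log ratio of the 2 desaturases was thus lower on every Klf5-deleted array, with a mean difference of -0.56; this pair was picked with the differences known and was not tested. Elovl5, which lengthens polyunsaturated chains, differed by -0.02 (95% CI -0.19 to 0.14), and the Elovl6 value minus the Elovl5 value was -1.28, -1.15 and -1.01 in the Klf5-deleted arrays, against -0.75, -0.79 and -0.82 in the control arrays. That ratio too had no overlap between groups, but with Elovl5 almost unchanged it largely restates the fall of Elovl6. This pair was also picked with the differences known and was not tested. Among the desaturases that introduce double bonds into polyunsaturated chains, Fads2 differed by -0.24 (95% CI -0.41 to -0.07, adjusted p = 0.178 by limma) and Fads1 by -0.15 (95% CI -0.31 to 0.01), both without overlap.

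In the sterol arm, the 6 genes up to farnesyl diphosphate had a median difference of -0.24 and the 10 genes from squalene synthesis onward one of -0.25. In the mevalonate part, Fdps, the synthase of farnesyl diphosphate, read 10.96, 10.93 and 11.00 in the Klf5-deleted arrays, against 11.34, 11.48 and 11.14 in the control arrays. The Klf5-deleted arrays lay close together and below all controls, and the gene was 1.28-fold lower, a difference of -0.36 (95% CI -0.57 to -0.15, adjusted p = 0.122 by limma). Mvk, the mevalonate kinase, differed by -0.34 (95% CI -0.57 to -0.11) and Mvd, which decarboxylates the diphosphate, by -0.27 (95% CI -0.47 to -0.08). Hmgcs1, which makes HMG-CoA at the entry to the pathway, differed by -0.22 (95% CI -0.37 to -0.06). These 4 genes did not overlap between groups. Pmvk, the next kinase, and Idi1, the isomerase of isopentenyl diphosphate, differed by -0.18 and -0.21 and overlapped; a second Idi1 feature differed by -0.25.

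At the entry to squalene and its cyclisation, the differences were of the same size. Fdft1, the squalene synthase, differed by -0.31 (95% CI -0.47 to -0.14), and its second feature by -0.44. Sqle, which oxidises squalene, differed by -0.24 (95% CI -0.45 to -0.03). Lss, the cyclase that forms lanosterol, had the lowest difference of the sterol arm and read 10.41, 10.11 and 10.27 in the Klf5-deleted arrays, against 10.63, 10.79 and 10.48 in the control arrays. These groups did not overlap, and the gene was 1.29-fold lower, a difference of -0.36 (95% CI -0.62 to -0.11, adjusted p = 0.178 by limma).

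Among the enzymes that trim lanosterol to cholesterol, Tm7sf2, a sterol reductase, read 8.56, 8.35 and 8.59 in the Klf5-deleted arrays, against 8.94, 8.94 and 8.70 in the control arrays. It differed by -0.36 (95% CI -0.59 to -0.13, adjusted p = 0.143 by limma) without overlap. Nsdhl, which acts in the removal of methyl groups, differed by -0.26 with the narrowest interval of the arm (95% CI -0.41 to -0.12, adjusted p = 0.0944 by limma). Dhcr7, the reductase of the last step, differed by -0.26 (95% CI -0.45 to -0.07). Neither gene overlapped between groups.

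The other genes of this stretch overlapped. Cyp51, the lanosterol demethylase, differed by -0.24 (95% CI -0.59 to 0.11) and Ebp, a sterol isomerase, by -0.21 (95% CI -0.51 to 0.09), or -0.09 without control 1. Hsd17b7, a ketoreductase, read 9.82, 9.68 and 9.68 in the Klf5-deleted arrays, against 9.87, 10.03 and 9.74 in the control arrays, a difference of -0.15. Sc5d, a sterol desaturase, had the smallest difference of the arm and read 10.41, 10.45 and 10.29 in the Klf5-deleted arrays, against 10.51, 10.52 and 10.37 in the control arrays. Its difference was -0.08 (95% CI -0.26 to 0.09, adjusted p = 0.699 by limma).

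All 4 regulators were lower and none passed the threshold. Srebf1, which codes for SREBP-1, read 10.01, 9.76 and 9.94 in the Klf5-deleted arrays, against 10.32, 10.23 and 10.15 in the control arrays, without overlap. It differed by -0.33 (95% CI -0.53 to -0.13, adjusted p = 0.124 by limma), or 1.26-fold lower. Srebf2, which codes for SREBP-2, read 11.48, 11.08 and 11.37 in the Klf5-deleted arrays, against 11.62, 11.50 and 11.49 in the control arrays. The groups were separated only by the gap between Klf5-deleted 1 and control 3, and the difference was -0.23 (95% CI -0.48 to 0.03, adjusted p = 0.407 by limma), or -0.11 without Klf5-deleted 2. The array feature of Srebf1 was not resolved into the transcripts of SREBP-1a and SREBP-1c.

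Scap, the escort protein of SREBPs, read 10.67, 10.26 and 10.58 in the Klf5-deleted arrays, against 10.64, 10.61 and 10.66 in the control arrays. Klf5-deleted 1 was the highest of all 6 arrays and Klf5-deleted 2 the lowest, and the difference was -0.13 (95% CI -0.38 to 0.12), or -0.01 without Klf5-deleted 2. Insig1, which retains the SREBP and Scap complex and is itself an SREBP target, read 10.91, 10.87 and 10.83 in the Klf5-deleted arrays, against 11.08, 11.09 and 10.77 in the control arrays. Control 3 lay below all 3 Klf5-deleted arrays, and the difference was -0.11 (95% CI -0.34 to 0.11, adjusted p = 0.667 by limma).

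The arrays of a group were ordered alike across many members. Klf5-deleted 2 was the lowest of its group in 19 of 32 members, while it was lowest in 39.6% of all genes, and Klf5-deleted 1 was the highest in 20 of 32, while it was highest in 31.5% of all genes. Control 3 was the lowest control in 21 of 32 members and in 14 of 16 sterol genes, against 27.3% of all genes. Without control 3, 15 of 16 sterol genes had no overlap, against 16.2% of all genes, and the sterol median was -0.30. That array was singled out after this order was seen, and leaving out the lowest control can only raise the count. Without any other array the count was 10 to 13, against 15.9% to 18.5% of all genes. The sterol median was then -0.27 to -0.24. These counts describe genes read on the same arrays, which are not independent.

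Within the sterol arm Klf5-deleted 2 was the highest of its group for 7 of 16 genes, against 32.2% of all genes, namely Hmgcs1, Pmvk, Idi1, Fdft1, Sqle, Cyp51 and Sc5d. It was the lowest for 8 of 16, against 39.6% of all genes, namely Mvk, Mvd, Fdps, Lss, Tm7sf2, Nsdhl, Ebp and Dhcr7. Cyp51 gave the widest case, with 10.15, 10.49 and 9.84 in the Klf5-deleted arrays, against 10.35, 10.42 and 10.44 in the control arrays. Its difference was -0.41 without Klf5-deleted 2 and -0.08 without Klf5-deleted 3. These groups of genes were noticed after their values were seen, and the counts of 7 and 8 of 16 were not far from the shares over all genes.

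**Figure D3:**
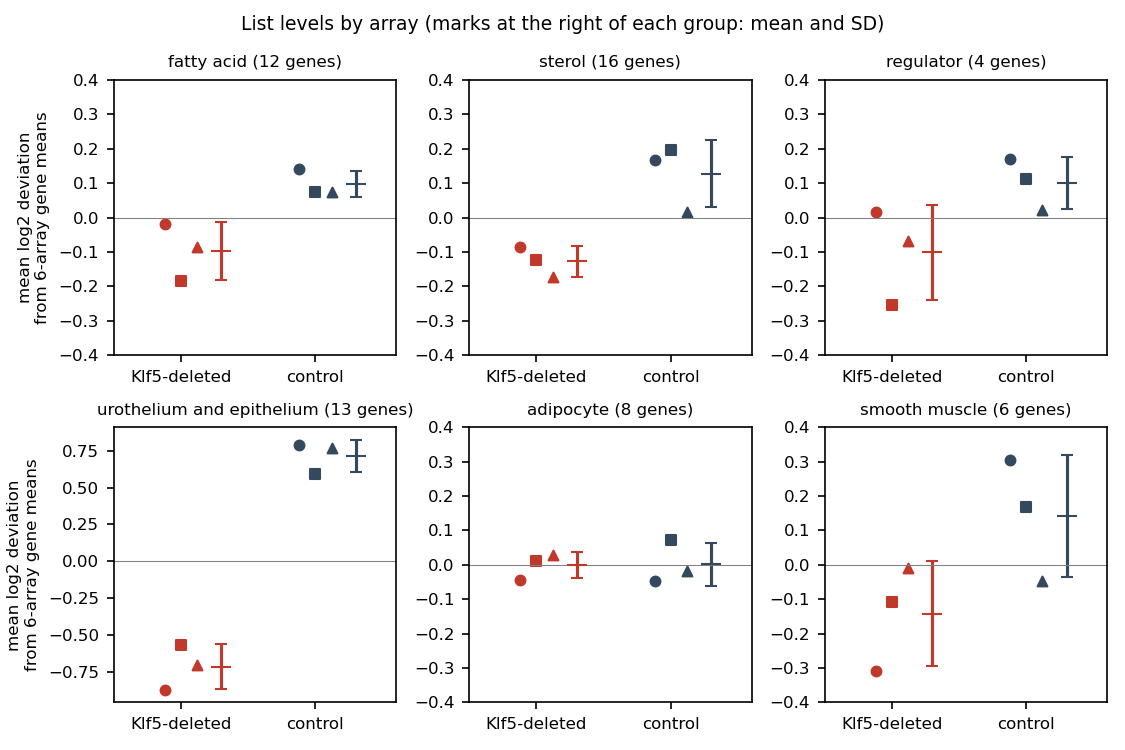
Mean over the genes of a list of the log2 value minus the gene's mean over 6 arrays, for each array (circle, square and triangle for replicates 1, 2 and 3, red for Klf5-deleted and dark for control), with the group mean and SD at the right of each group. Both arms and the regulators lie lower in Klf5-deleted arrays, and the epithelial panel has a wider vertical axis than the others.

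Averaged over its genes, the sterol arm lay at -0.09, -0.12 and -0.17 in the Klf5-deleted arrays relative to the mean of each gene over 6 arrays, against 0.17, 0.20 and 0.02 in the control arrays. The fatty acid arm lay at -0.02, -0.19 and -0.09 in the Klf5-deleted arrays, against 0.14, 0.07 and 0.08 in the control arrays. Neither average overlapped between groups. The mean of 8 housekeeping genes did not overlap either. It lay at -0.03, -0.01 and -0.05 in the Klf5-deleted arrays, against 0.06, 0.03 and 0.004 in the control arrays, a difference of -0.06. The largest falls behind this mean were those of B2m at -0.28 and Pgk1 at -0.20. Hprt differed by -0.10 and Ppia by -0.01, and the other 4 by 0.01 to 0.05, so the fall was not shared by all 8. The fatty acid average minus the sterol average was 0.07, -0.06 and 0.09 in the Klf5-deleted arrays, against -0.03, -0.12 and 0.06 in the control arrays, and these did overlap. Between the group means the sterol average differed by -0.25 and the fatty acid average by -0.19, against -1.43 for the epithelial and -0.28 for the smooth muscle markers.

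The sequences upstream of the genes are shown as a description, and whether they bear on the differences was not tested. Windows of 300 bases, from 250 before to 50 after a gene start, came from RefSeq on build GRCm38.p6 and covered 26 of the 32 members in 33 windows; Scd1, Scd2, Fads1, Fdps, Fdft1 and Sqle had none in the table. The windows below are those of Lss and Tm7sf2, which had the lowest differences of the sterol arm, of Mvk, whose window held the most CCAAT boxes, of Hmgcs1, and of Elovl6. Capitals mark the CCAAT box, read as CCAAT or, on the other strand, as ATTGG.
Lss, chr10:76531355-76531654, plus strand: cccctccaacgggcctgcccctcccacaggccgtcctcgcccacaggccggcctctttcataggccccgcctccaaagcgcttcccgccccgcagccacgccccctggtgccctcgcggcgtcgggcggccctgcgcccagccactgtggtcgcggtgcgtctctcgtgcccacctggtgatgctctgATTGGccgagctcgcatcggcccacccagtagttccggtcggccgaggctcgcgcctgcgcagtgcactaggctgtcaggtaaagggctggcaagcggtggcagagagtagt
Tm7sf2, chr19:6067801-6068100, minus strand: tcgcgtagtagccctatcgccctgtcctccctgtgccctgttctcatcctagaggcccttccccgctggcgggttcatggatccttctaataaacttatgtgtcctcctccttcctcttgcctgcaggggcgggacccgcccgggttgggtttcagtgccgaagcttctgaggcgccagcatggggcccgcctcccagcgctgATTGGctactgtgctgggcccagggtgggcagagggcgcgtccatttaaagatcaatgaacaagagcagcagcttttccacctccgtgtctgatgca
Mvk, chr5:114444019-114444318, plus strand: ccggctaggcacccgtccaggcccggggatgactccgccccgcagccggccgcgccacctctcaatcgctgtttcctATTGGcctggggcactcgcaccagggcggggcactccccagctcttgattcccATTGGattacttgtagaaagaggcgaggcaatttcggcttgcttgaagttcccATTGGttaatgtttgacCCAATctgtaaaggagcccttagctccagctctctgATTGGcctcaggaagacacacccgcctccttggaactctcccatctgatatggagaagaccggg
Hmgcs1, chr13:119690101-119690400, plus strand: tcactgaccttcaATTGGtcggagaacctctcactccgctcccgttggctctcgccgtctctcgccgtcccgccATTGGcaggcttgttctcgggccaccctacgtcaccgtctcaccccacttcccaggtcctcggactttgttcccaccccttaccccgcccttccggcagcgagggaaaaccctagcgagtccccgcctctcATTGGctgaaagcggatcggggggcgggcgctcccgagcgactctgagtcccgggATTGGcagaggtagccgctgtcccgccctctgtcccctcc
Elovl6, chr3:129532136-129532435, plus strand: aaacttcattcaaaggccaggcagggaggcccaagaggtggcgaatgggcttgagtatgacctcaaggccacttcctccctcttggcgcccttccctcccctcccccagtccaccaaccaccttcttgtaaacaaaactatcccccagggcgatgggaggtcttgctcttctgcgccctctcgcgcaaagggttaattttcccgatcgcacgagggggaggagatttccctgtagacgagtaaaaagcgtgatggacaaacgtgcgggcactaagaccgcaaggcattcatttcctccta

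CCAAT is the motif of NF-Y, a factor known to act beside SREBPs at sterol genes. It was found on either strand in a window of 13 of 13 sterol genes, 6 of 9 fatty acid genes and 3 of 4 regulators, while 42.3% of protein-coding genes in the same table held it. Mvk had 5 matches, Hmgcs1 and Nsdhl 4 each, Lss and Tm7sf2 1 each and Elovl6 none. The GC box GGGCGG, a site of Sp1 and of related Krüppel-like factors, was found in 12 of 13 sterol genes, 4 of 9 fatty acid genes and 4 of 4 regulators, while 49.2% of protein-coding genes held it. Other motifs were read on both strands and by window. The sterol element TCACNCCAC matched 1 of 33 member windows, in Hmgcs1 as TCACCCCAC, and 1.19% of protein-coding windows. The CACCC box matched 63.6% of member windows and 59.5% of protein-coding windows, and the E-box CACGTG matched 21.2% and 7.84%. CACCC can overlap the sterol element, and a match describes letters in a window, not a bound site.

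Other genes of the same pathways gave 2 further calls, both in the handling of fatty acids. Of 51 such genes listed, 42 were measured, and 2 fell, none rose and 40 did not pass; over all genes 1.98% passed, 1.59% as lower. Dgat2, which joins the last fatty acid to triglyceride, read 9.53, 9.36 and 9.60 in the Klf5-deleted arrays, against 10.39, 10.25 and 10.08 in the control arrays, a difference of -0.74 (SE 0.10, adjusted p = 0.0145 by limma). Acsl5, which activates long-chain fatty acids with coenzyme A, read 9.52, 9.73 and 9.44 in the Klf5-deleted arrays, against 10.16, 10.12 and 10.11 in the control arrays, a difference of -0.56 (SE 0.09, adjusted p = 0.0222 by limma). Both were lower on every Klf5-deleted array than on any control array. The count of calls in this list was 0 without Klf5-deleted 1 or control 1, 1 without Klf5-deleted 2, Klf5-deleted 3 or control 3, and 3 without control 2.

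Among the other fatty acid genes, 26 of 31 were lower, against 53.5% of all genes, with a median of -0.11. In the elongation cycle Hacd2, a dehydratase, differed by -0.42 (adjusted p = 0.0665 by limma) and the elongase gene Elovl1 by -0.38 (adjusted p = 0.0956 by limma), 2 genes named after their values were seen. Elovl7 differed by -0.33 (adjusted p = 0.30 by limma) and Fads3 by -0.22. Of the other genes of the cycle, Hacd1 differed by -0.25, Tecr by -0.16, Elovl3 by -0.14 and Hsd17b12 by -0.02, while Elovl2 differed by 0.08, Elovl4 by 0.11 and Hacd3 by 0.16. Mlxipl, which codes for the glucose-responsive regulator ChREBP, differed by -0.11.

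The other sterol genes did not share the uniform direction of the 16 enzymes. Of 11 measured, which cover regulation, transport and export as well as synthesis, 6 were higher and 5 lower, and their median difference was 0.01. Msmo1, the sterol methyl oxidase between Cyp51 and Nsdhl in the pathway, differed by -0.27 (95% CI -0.68 to 0.14). Insig2, the paralog of Insig1, differed by 0.01 (95% CI -0.17 to 0.19). The highest difference was that of the cholesterol exporter gene Abca1, named after its value was seen, at 0.30 (adjusted p = 0.283 by limma). No test of the difference between these lists was made.

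**Figure D4:**
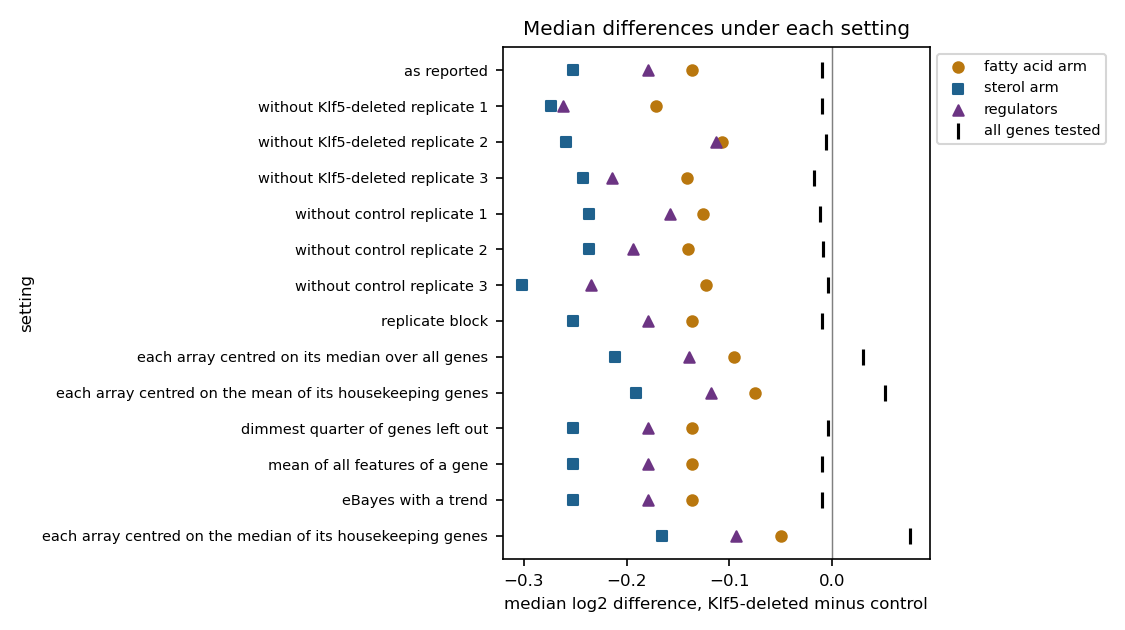
Median log2 difference, Klf5-deleted minus control, of the fatty acid arm, the sterol arm, the regulators and all genes tested (horizontal axis) under the reported setting and each alternative (rows). The sterol median lies between -0.30 and -0.17 in every row and below that of the fatty acid arm.

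In the 6 fits that left out 1 array, the sterol median lay between -0.30 and -0.24 and the fatty acid median between -0.17 and -0.11. The centrings shift all genes of an array alike and cannot change the order of the arms. Relative to the median of all genes, which a shift of whole arrays does not move, the reported differences were -0.24 for the sterol arm and -0.13 for the fatty acid arm.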

How the data were processed

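The authors deposited log2 expression values for each feature of each array, produced by RMA per the submitters' processing notes; the log2 scale is an inference from the range of 3.24 to 14.6. No version of RMA, build or annotation is stated (not given in the sources used here). RMA equalises array distributions and compresses dim features, but the medians of the deposited arrays still ran from 7.68 to 7.80. Scanner files were not used here, and the number of arrays limits the precision. Of 35557 features, 21789 had a single symbol, 1621 several and 12147 were unnamed here; the highest-mean feature per symbol left 19938 genes. Of the members, 4 had several features, which may include copies of the gene that share sequence. All 32 measured members matched RefSeq genes of assembly GRCm38.p6 by Entrez identifier.

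Groups were compared by two-sided moderated tests in limma (version 3.58.1, under R 4.3.3), with Benjamini-Hochberg adjustment over all genes and a threshold of 0.05; the fit was tested on simulated data. Exact permutation of 3 against 3 arrays could not go below 0.1, so none was used. p-values measure the spread between pools, which the labels do not assign to litters. Lists are described by counts and medians. Alternatives left out each array, blocked on replicate number, centred arrays in 3 ways, dropped the dimmest 25% of genes, averaged features or used a variance trend. Values on every array are given for members past the threshold, the 3 lowest and 2 highest differences of each arm, the regulators and Klf5, with Cyp51, Dgat2 and Acsl5 added later. Members and lists were chosen with earlier results of these data known.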

Additional observations from a re-analysis of the deposited data

How the results depend on the processing

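Leaving out 1 array at a time gave 141 to 349 genes past the threshold against 395 over all arrays, 0 to 1 members against 2, 0 to 3 other pathway genes against 2, and a Klf5 difference of -0.68 to -0.51. No member passed without any of the Klf5-deleted arrays or control 1, only Me1 did without control 2, and only Scd1 without control 3; the other pathway genes numbered 0 without Klf5-deleted 1 or control 1. The sterol median lay between -0.30 and -0.24 and the fatty acid median between -0.17 and -0.11. Leave-one-out fits have fewer samples.

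With a replicate block, a paired fit on the number in the titles, 110 genes, 0 members and 0 other pathway genes passed, and the Klf5 difference of -0.59 had an adjusted p of 0.137 by limma. The labels assign no litter to these numbers, so the main fit did not block on them. Deviations of same-numbered arrays correlated at 0.009 to 0.079, and those of the other pairs at -0.053 to 0.011. Klf5-deleted 1 correlated best with control 2, at 0.011 against 0.009 with control 1. Every other array correlated best with its own number. With 3 arrays per group these correlations cannot exclude a pairing.

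Centring each array on its median over all genes left 1 member and a Klf5 difference of -0.55 (adjusted p = 0.061 by limma). Centring on the mean of the housekeeping genes left 1 member, a Klf5 difference of -0.52 (adjusted p = 0.0559 by limma), a fatty acid median of -0.0753 and 4 fatty acid genes without overlap. Centring on the median of the housekeeping genes, chosen after seeing the data, left 0 members, a fatty acid median of -0.0501, a sterol median of -0.166, and 3 fatty acid and 4 sterol genes without overlap. On each array that median was set by Ywhaz and the higher of B2m and Pgk1. Over all genes 39.3%, 32.8% and 25.7% were lower under these centrings, against 53.5% as reported, with 9, 9 and 7 of 12 fatty acid genes and 16, 16 and 15 of 16 sterol genes. The share of calls that were lower was 80.5%, against 70.2%, 64.6% and 61% under these centrings. Of 416 differences of single members under alternatives, 390 kept their sign and side of the threshold, 17 lost a call, 1 gained it and 8 turned sign. The turned ones were Fasn, at -0.175 to 0.0428 over the fits that left out 1 array, turned without Klf5-deleted 2; Elovl5, at -0.0614 to 0.015 in those fits, turned without Klf5-deleted 3; Elovl5 at 0.0164, 0.0371 and 0.0622 under the 3 centrings in the order above; and, with the housekeeping median, Acacb at 0.0152, Fasn at 0.00443 and Sc5d at 0.00507. The cause of these changes was not tested. Background cannot be judged here for dim features.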
